A study of Homo sapiens with 12 samples.

Results

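The S100 protein family was followed through polysome-associated RNA of 3 triple-negative breast cancer (TNBC) cell lines, in which TRMT112 had been depleted or overexpressed. The 10 members, S100A2, S100A3, S100A4, S100A6, S100A10, S100A11, S100A13, S100A14, S100A16 and S100P, were listed by symbol and were chosen from measured values, namely their polysome levels across these same groups. Their levels and differences are therefore given as a description, with fitted log2 fold changes and standard errors (SE) and with no p-value. Of the 10 members, 9 had a row among the 24559 gene symbols of the count table and all 9 passed the filter on low counts, whereas S100A14 had no row in the table used here and was not analysed. Of the 11 other S100 genes looked up, S100A1 and S100A5 had a row with at most 10 and 7 counts in any library, both below the filter, and S100A7, S100A7A, S100A7L2, S100A8, S100A9, S100A12, S100B, S100G and S100Z had no row in the table used here.

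The 12 libraries formed 6 groups of 2. MDA-MB-231 and SUM159, both established TNBC lines, carried either a lentiviral GIPZ shRNA against TRMT112 (knockdown, KD) or its non-silencing control (EV) and were selected with puromycin. BT549, another established TNBC line, carried the TRMT112 open reading frame in the pReceiver-M02 vector (overexpression, OE) or the empty vector (EV) and was selected with G418. According to the methods, the medium of SUM159 held insulin and hydrocortisone, and BT549 was grown in RPMI, so that levels set side by side across lines also differ in medium. TRMT112 is the protein partner that stabilises several RNA and protein methyltransferases. RNA was taken from pooled polysome fractions of a sucrose gradient, with no total RNA of the same cells used here, so mRNA amount and ribosome loading cannot be told apart, nor can fewer cells expressing a gene and less RNA per cell. The labels do not say that the 2 libraries of a group came from separate cultures, and the p-values below then measure only the spread between these libraries, which may be technical.

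S100 proteins are small calcium-binding proteins, each built of a pair of EF-hand motifs, that work mostly as dimers and change the activity of the proteins they bind. Several dock on annexins at the plasma membrane: S100A10, which has lost calcium binding, with annexin A2, S100A11 with annexin A1, and S100A6 with annexins and with the calcyclin-binding protein CACYBP. S100A4 binds non-muscle myosin IIA and is known from metastasis, S100A2 was described in breast epithelium as a gene lost in tumour cells, and some members are also released and bind the receptor AGER. Most S100 genes lie in one cluster on the long arm of chromosome 1.

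In the GENCODE annotation of GRCh38, all members but S100P lie on the minus strand of chromosome 1, between chr1:151982915-151993859 (S100A10) and chr1:153618787-153631360 (S100A13). S100A11 lies at chr1:152032506-152047907, S100A6 at chr1:153534599-153536244, S100A2 at chr1:153561108-153567890 and S100A16 at chr1:153606886-153613145. S100A3 (chr1:153547329-153549258) lies inside the annotated span of S100A4 (chr1:153543613-153550136) with no shared exon. S100P is on the plus strand at chr4:6693878-6697170. The upstream sequences that RefSeq (GRCh38.p14) gives for all 10 members were searched over 250 bases before the start for 4 short motifs on both strands: the TATA box TATAAA, the GC box GGGCGG, the CCAAT box CCAAT and the AP-1 site TGANTCA. Those 150 bases before the start are shown for the neighbours S100A2, S100A3 and S100A4, whose levels took different courses in SUM159 KD. They are also shown for both starts of S100A16, whose transcripts took different shares of the counts between lines. In the stretch of the distal S100A16 start, 8 bases are exonic in another transcript, S100A16-205. The last base printed is the one just before the first base that RefSeq gives for that start, and capitals mark a motif of the list:
S100A2 (chr1:153565845-153565994, minus strand): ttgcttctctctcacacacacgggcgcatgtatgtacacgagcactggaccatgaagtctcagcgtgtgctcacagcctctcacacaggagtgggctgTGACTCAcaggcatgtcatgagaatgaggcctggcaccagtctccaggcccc
S100A3 (chr1:153549259-153549408, minus strand): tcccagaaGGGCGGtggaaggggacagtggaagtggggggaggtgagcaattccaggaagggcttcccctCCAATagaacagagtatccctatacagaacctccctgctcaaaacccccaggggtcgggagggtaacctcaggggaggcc
S100A4 (chr1:153545807-153545956, minus strand): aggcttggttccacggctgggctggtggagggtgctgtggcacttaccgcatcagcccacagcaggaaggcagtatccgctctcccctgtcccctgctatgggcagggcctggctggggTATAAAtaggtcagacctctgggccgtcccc
S100A16 distal start (chr1:153613138-153613287, minus strand): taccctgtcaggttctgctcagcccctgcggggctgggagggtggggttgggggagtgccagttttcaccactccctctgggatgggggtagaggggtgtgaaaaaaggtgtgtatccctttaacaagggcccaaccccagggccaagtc
S100A16 proximal start (chr1:153609356-153609505, minus strand): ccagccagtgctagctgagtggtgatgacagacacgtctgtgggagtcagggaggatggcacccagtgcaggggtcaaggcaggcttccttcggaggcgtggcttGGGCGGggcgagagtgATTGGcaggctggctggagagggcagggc

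The S100A4 start had a TATA box 31 bases upstream, the S100A2 start an AP-1 site 52 bases upstream, and the S100A3 start a GC box at 142 and a CCAAT box at 80 bases, besides an AP-1 site at 225 bases that lies before the printed stretch. The distal S100A16 start held none of the 4 motifs in 250 bases, whereas the proximal start had a GC box at 45 bases and the CCAAT box on the other strand at 29 and 237 bases. The S100A6 start had 3 GC boxes at 90, 79 and 75 bases, the last pair overlapping; its sequence is not printed because these bases are exonic in other S100A6 transcripts. S100P and the S100A13-205 start had a TATA box at 28 and 29 bases. Of the 14 windows RefSeq gives for the members, 3 held a TATA box, 6 a GC box, 3 a CCAAT box and 2 an AP-1 site, against 10.7%, 42.6%, 32.0% and 6.57% of the 35116 human windows of the same length. These matches describe letters only and were not tested against the levels below.

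Library totals lay between 22954226 and 27434677 expected counts, and levels are given as CPM, counts scaled to a common library total after scaling of the libraries by the trimmed mean of M values (TMM). TRMT112 itself, which checks the labels, was at 169 ± 6.19 CPM (SD, n = 2) in MDA-MB-231 EV and 72.1 ± 2.42 in KD, at 270 ± 6.91 in SUM159 EV and 159 ± 6.19 in KD, and at 129 ± 0.34 in BT549 EV and 180 ± 1 in OE. Of the receptors that define TNBC, ESR1 had no row. Transcripts undetected in all BT549 libraries have no row, so this bears on BT549 only and leaves ESR1 in MDA-MB-231 and SUM159 unknown. PGR was at 0 in 10 libraries and at most 0.417 CPM in the other 2, under the same limit. ERBB2 stood between 57.9 and 143 CPM, with no receptor-positive line here to set it against. These values do not check the TNBC label of each library. The epithelial keratins KRT8 and KRT18 were at 183 CPM or more in MDA-MB-231 and SUM159 and under 1 CPM in BT549, CDH1 and EPCAM were at 3.02 CPM or less throughout, and VIM, the mesenchymal filament, was at a lower level in BT549 OE (704 and 730 CPM) than in EV (1980 and 1986 CPM), as was ERBB2 (70.7 and 72.2 against 138 and 143 CPM). In SUM159 KD, KRT8 was at 366 and 348 CPM against 205 and 207 in EV, and VIM at 1591 and 1501 against 1925 and 1952. The part of these differences in the S100 values was not tested. A single edgeR quasi-likelihood model held the 6 group means and 16538 genes, and a gene counted as called at an adjusted p (Benjamini-Hochberg, over all of them) under 0.05. Because the libraries were scaled to each other, a change shared by all mRNAs would not appear.

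Summed over the 9 members with a row, the level was highest in SUM159 and lowest in MDA-MB-231. Transcripts undetected in all BT549 libraries have no row in the table, so the sums do not cover S100A14 or the other S100 genes without a row. Per length, which is the only scale on which genes are compared here (CPM per kilobase of transcript), the 9 members summed to 4950 ± 269 (SD, n = 2) in SUM159 EV, 2902 ± 19.1 in BT549 EV and 1666 ± 36.1 in MDA-MB-231 EV. The sum was 6650 ± 50.2 in SUM159 KD, above both EV libraries (4760 and 5141). In MDA-MB-231 KD it was 1672 ± 38.2, and its libraries (1699 and 1645) overlapped the EV libraries (1641 and 1692). In BT549 OE the sum was 1855 ± 45.3, below both EV libraries (2916 and 2889).

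The makeup of the family differed between lines. S100A6, the calcyclin gene, was the most abundant member per length in each group, with between 37.6% (BT549 OE) and 57.0% (SUM159 KD) of the summed level. S100A11 followed in BT549 EV with 40.0%, but held only 11.2% in SUM159 EV and 20.3% in MDA-MB-231 EV. S100A2 made 8.81% of the sum in SUM159 EV and 0.38% in SUM159 KD, while S100A4 went from 5.95% to 12.6%. S100A16 made 11.2% in MDA-MB-231 EV, 7.84% in SUM159 EV and 0.0275% in BT549 EV. S100A3 and S100P stayed at 0.687% or less and 0.0563% or less in all 6 groups.

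**Figure D1:**
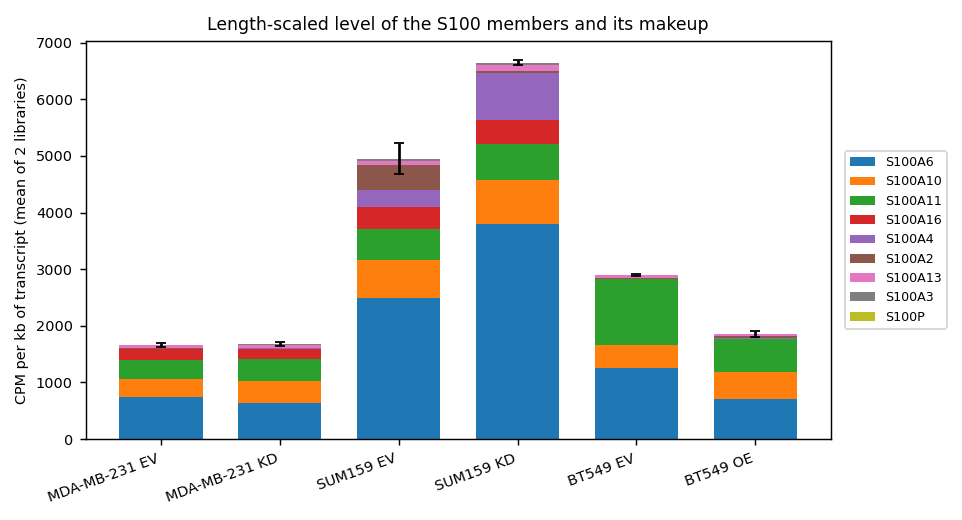
Stacked bars of the mean CPM per kilobase of transcript of the 9 members in each of the 6 groups; bars on top give the SD of the sum over 2 libraries. The bars reach 6650 in SUM159 KD and 1666 in MDA-MB-231 EV, S100A6 is the largest block in each, and the S100A2 block of SUM159 EV gives way to S100A4 in SUM159 KD.

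**Figure D2:**
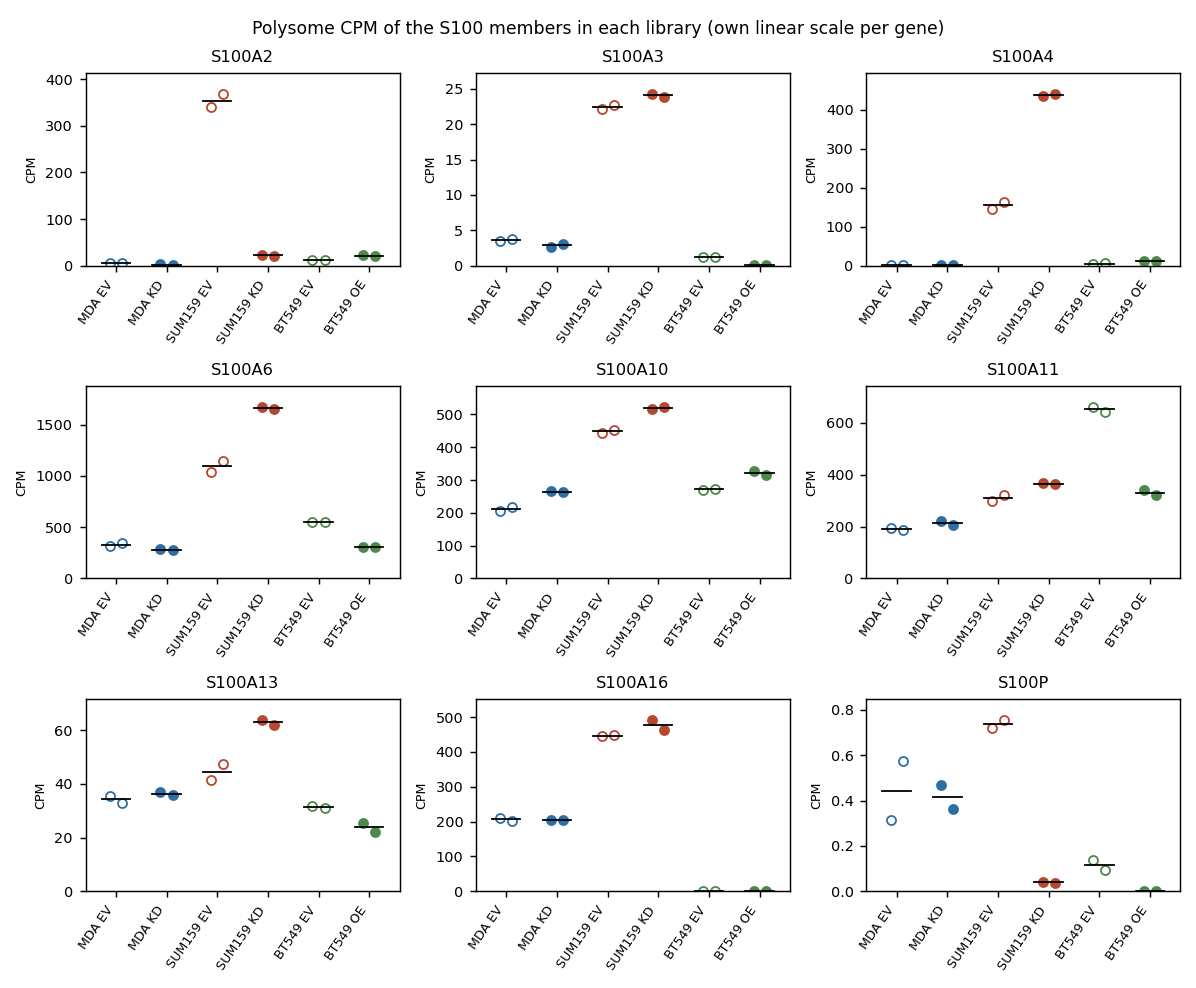
CPM of each member in every library (points; open for EV, filled for KD or OE) with the group mean (line), on a linear axis from 0 with its own scale per gene. SUM159 stands highest for 8 of the 9 members, S100A11 is highest in BT549 EV, and S100A16 lies at the bottom of the axis in BT549.

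The 3 members that dock on annexins were the most abundant per length in each group except SUM159 KD, where S100A4 (12.6% of the sum) stood above S100A10 (11.7%) and S100A11 (9.77%). S100A6 was at 317 and 342 CPM in MDA-MB-231 EV, 284 and 275 in KD, 1038 and 1150 in SUM159 EV, 1676 and 1651 in KD, 552 and 554 in BT549 EV, and 311 and 305 in OE. Within no line did the EV libraries overlap the others, and the KD side was the lower one in MDA-MB-231 and the higher one in SUM159. The fitted log2 fold changes were -0.24 (SE 0.04) in MDA-MB-231 KD, 0.6 (SE 0.037) in SUM159 KD and -0.85 (SE 0.04) in BT549 OE. An antisense gene without a symbol overlaps S100A6 exons over 37 bases, and the counts are not known to keep strand.

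S100A10, the light chain of the annexin A2 complex, was the member with the narrowest range, 2.46-fold between the highest and the lowest group mean. It was at 207 and 216 CPM in MDA-MB-231 EV and at 267 and 262 in KD, at 443 and 454 in SUM159 EV and at 518 and 524 in KD, and at 271 and 274 in BT549 EV and at 329 and 315 in OE. In all 3 lines both libraries with changed TRMT112 lay above both EV libraries, whether TRMT112 was lowered or raised. The log2 fold changes were 0.32 (SE 0.032), 0.22 (SE 0.03) and 0.24 (SE 0.032) in the same order of lines. Of all genes tested, 62.6%, 26.4% and 19.7% had an absolute log2 fold change no larger than that of S100A10.

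S100A11, the annexin A1 ligand also called calgizzarin, was highest in BT549 EV. Its CPM was 193 and 187 in MDA-MB-231 EV, 222 and 206 in KD, 301 and 323 in SUM159 EV, 367 and 365 in KD, 663 and 644 in BT549 EV, and 340 and 324 in OE. It was thus higher in KD than EV in both KD lines and at about the SUM159 level in BT549 OE, with no overlap within a line. The log2 fold changes were 0.17 (SE 0.04), 0.23 (SE 0.037) and -0.98 (SE 0.037); the call in MDA-MB-231 was lost with library size alone as the scaling (0.08) or without KD replicate 1 (0.12).

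S100A2, S100A3 and S100A4 are next to each other on the chromosome. S100A2 was at 340 and 369 CPM in SUM159 EV and at 22.7 and 21.3 in KD, a log2 fold change of -4.01 (SE 0.057). In MDA-MB-231 it was also lower in KD, at 2.47 and 1.98 CPM against 5.19 and 4.55 in EV (-1.13, SE 0.17), and in BT549 it was higher in OE, at 21.7 and 21.3 CPM against 11.5 and 12.6 in EV (0.84, SE 0.089). S100A2 was thus on the lower side with less TRMT112 and on the higher side with more, without overlap within a line. Libraries did not overlap for 7, 9 and 9 of the 9 members in MDA-MB-231, SUM159 and BT549. The share of all genes without overlap was not counted. The S100A2 level in SUM159 KD still overlapped that of BT549 OE.

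S100A4, the myosin IIA ligand, went the other way in SUM159. It was at 147 and 164 CPM in SUM159 EV and at 436 and 441 in KD, a log2 fold change of 1.5 (SE 0.044). In BT549 it was at 4.81 and 5.74 CPM in EV and at 11.9 and 12.3 in OE (1.2, SE 0.13). In MDA-MB-231 it was at 2.01 and 1.68 CPM in EV and at 0.94 and 1.37 in KD, on 24 to 51 counts per library (-0.67, SE 0.26), and this call was lost under another scaling (RLE), with each line fitted alone and without any 1 of 3 libraries. Between SUM159 KD and MDA-MB-231 KD the group means of S100A4 differed 379-fold.

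S100A3, whose transcripts lie within the S100A4 span, passed the threshold in neither KD line. It was at 22.2 and 22.8 CPM in SUM159 EV and at 24.3 and 23.9 in KD (log2 fold change 0.1, SE 0.096, not called), and at 3.42 and 3.82 CPM in MDA-MB-231 EV and 2.63 and 3.1 in KD (-0.34, SE 0.16, not called). In BT549 it was counted 26 and 25 times in EV and 1 and 2 times in OE, a ratio of 16.7 for EV over OE (exact 95% interval 5.41 to 83.8, for counting error only).

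S100A16, which is broadly expressed in epithelia, separated the lines. It was at 210 and 202 CPM in MDA-MB-231 EV, 205 and 205 in KD, 445 and 447 in SUM159 EV, and 493 and 462 in KD, but at 1.1 and 0.648 in BT549 EV. The MDA-MB-231 groups overlapped (-0.01, SE 0.037), and the SUM159 KD libraries lay above the EV libraries by 0.1 (SE 0.034), a call lost with library size alone (0.06) and without either EV library or KD replicate 1. In BT549 it was counted 24 and 14 times in EV and 4 and 3 times in OE, a ratio of 5.34 for EV over OE (exact 95% interval 2.36 to 14.2, for counting error only).

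S100A13, a partner in the release of FGF1 and IL1A from cells, had 35.6 and 33 CPM in MDA-MB-231 EV, 36.9 and 35.7 in KD, 41.6 and 47.3 in SUM159 EV, 64 and 61.9 in KD, 31.7 and 31.1 in BT549 EV, and 25.3 and 22.3 in OE. Its libraries lay above EV in SUM159 KD (0.5, SE 0.065) and below EV in BT549 OE (-0.4, SE 0.08), and it was not called in MDA-MB-231 (0.08, SE 0.071). With its most abundant transcript tested singly, the call in SUM159 was lost (0.73) and the sign in BT549 turned (0.44). S100A13 exons overlap S100A1 on the opposite strand and an unnamed gene on the same strand over 771 bases in all, so part of these reads is uncertain; S100A1 itself had at most 10 counts. S100P, which binds ezrin, was scarce throughout, and only 4 of the 12 libraries held more than 10 counts of it. S100P was counted 17 and 18 times in SUM159 EV against 1 and 1 in KD. The ratio was 18.9 for EV over KD (exact 95% interval 4.86 to 162, for counting error only). In MDA-MB-231 its 8 and 15 counts in EV overlapped the 12 and 9 in KD, and in BT549 it was at or under the floor of 3 counts in each of the 4 libraries, so no fold is given there.

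In MDA-MB-231 KD, 2 members were past the threshold as higher and 3 as lower, where 21.2% and 16.5% of all genes tested were called higher and lower. With library size alone as the scaling, 1 member was higher and 5 were lower, with S100A3 (-0.43) and S100A16 (-0.1) added, and among all genes the share of calls that were higher went from 56.2% to 36.7%; S100A13 was then no longer on the higher side. In SUM159 KD, 6 members were higher and 2 lower, beside 28.6% and 31.4% of all genes. In BT549 OE, 3 were higher and 6 lower (S100P among them, at no more than 3 counts), beside 35.6% and 35.0% of all genes. The median log2 fold change of the 9 members was -0.09, 0.22 and -0.85 in the 3 comparisons (-0.62 in BT549 without S100P), beside 0, 0 and 0.02 for all genes tested. Since the members were chosen on these comparisons, nothing is read from their counts.

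**Figure D3:**
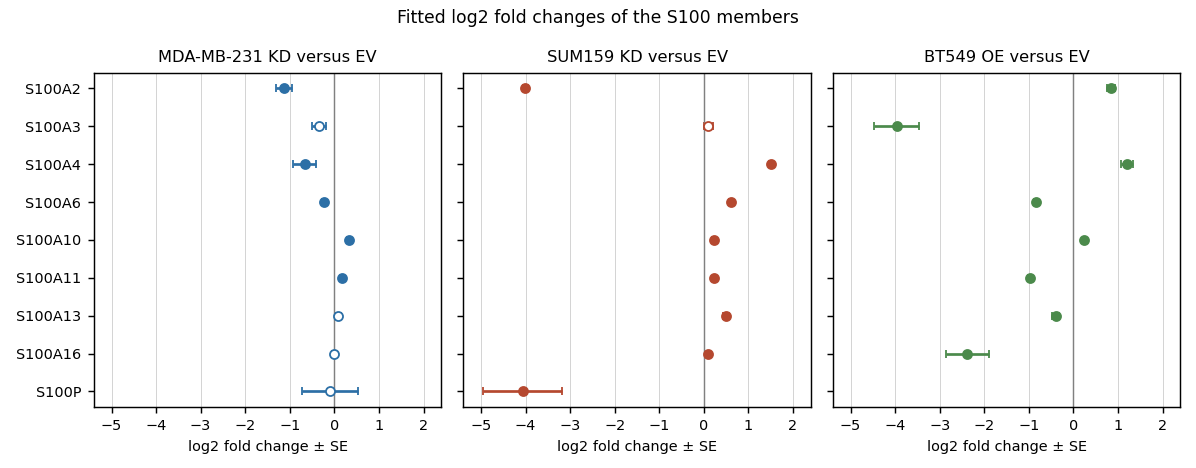
Fitted log2 fold change (point) with its SE (bar) of each member in the 3 comparisons; filled points are past the threshold, open points are not. S100P is left out in BT549, where it had at most 3 counts. S100A2 stands at -4.01 in SUM159 KD beside S100A4 at 1.5, and S100A10 is between 0.22 and 0.32 in each comparison.

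The transcripts within a gene were not used to choose the members. S100A16 counts came from transcripts of both starts, whose annotated 5′ ends lie 3793 bases apart; that of the proximal transcript is 11 bases past the RefSeq start shown above. The proximal transcript S100A16-203 took 27.9% of the gene's expected counts in both EV libraries of MDA-MB-231 and 31.7% and 30.0% in KD, against 7.82% and 7.16% in SUM159 EV and 4.4% and 4.46% in KD; the distal S100A16-204 took nearly all the rest. The lines did not overlap, and in SUM159 the S100A16-203 share was lower in both KD libraries while the gene total was slightly higher. S100A16-203 and S100A16-204 also differ in their annotated 3′ ends (153607362 and 153606886). Their shares therefore do not show the use of the starts alone. S100A16-202, which begins near the proximal start and has the 3′ end of S100A16-204, took 0.838% or less in each group mean of these lines. The shares were not tested.

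S100A4 counts were divided between the start with the TATA box and transcripts that begin 709 or 743 bases further downstream. In SUM159 EV the TATA-box transcripts S100A4-204 and S100A4-201 took 75.6% and 20.7%, and in KD 80.3% and 17.1%. In BT549 EV S100A4-204 took 18.2% and 20.2% of the counts and S100A4-206, which has no annotated coding sequence and starts 709 bases downstream, took 49.4% and 64.1%. The expected counts of S100A4-204 were 19.1 and 25.1 in BT549 EV and 134 and 105 in OE, whereas those of S100A4-206 were 51.9 and 79.5 in EV and 71.6 and 98.9 in OE, which overlap. The higher S100A4 of BT549 OE thus lay mainly in S100A4-204.

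S100A13 changed its makeup in BT549. S100A13-203, which starts 237 bases downstream of the TATA-box transcript S100A13-205, took 61.1% and 61.3% in EV and 26.7% and 37.5% in OE, and S100A13-205 took 16.5% and 15.5% in EV and 35.5% and 20.5% in OE. Tested singly, S100A13-205 had a log2 fold change of 0.44 in BT549 OE, opposite in sign to the gene, but its expected counts were 114 and 104 in EV and 194 and 96.4 in OE, so that 1 OE library lay above and the other below both EV libraries. The share of S100A13-204 was 17.7% and 20.4% in the EV libraries of BT549, below the 32.4% and 37.8% of the OE libraries. In SUM159 S100A13-204 went the other way, from 28.4% and 30.9% in EV to 16.7% and 18.5% in KD. S100A6-201, S100A10-202 and S100A11-201 held more than 95% of their genes' counts in each group, so these members rest on 1 transcript each. S100A2-202 held between 76.9% (SUM159 EV) and 90.1% (BT549 EV) of S100A2.

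**Figure D4:**
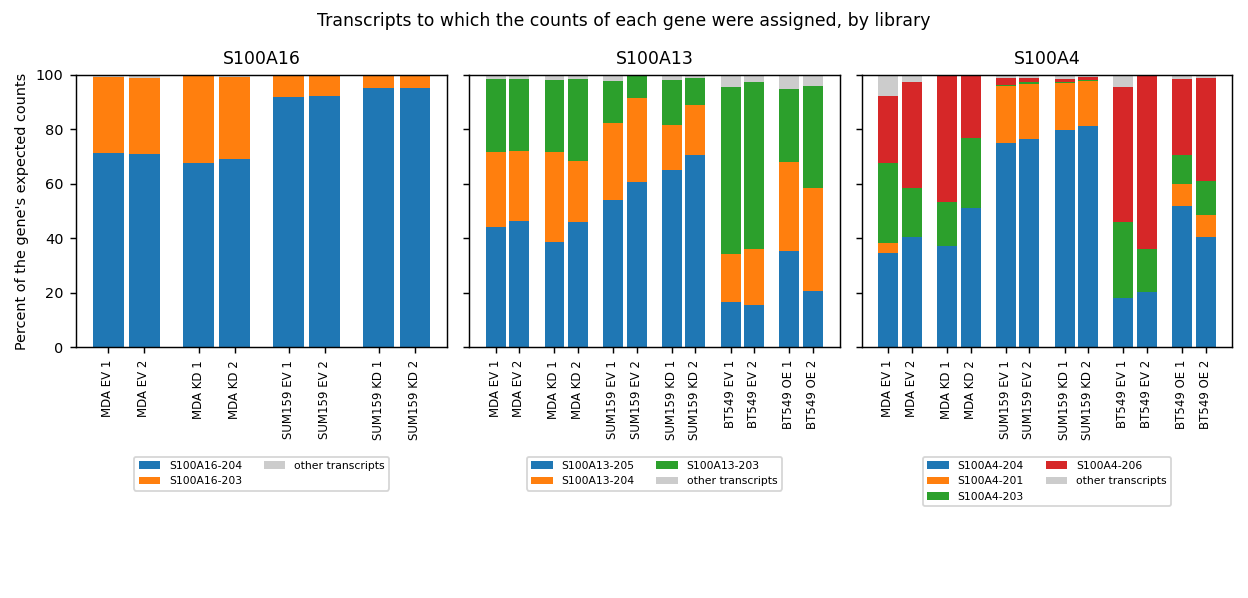
Percent of a gene's expected counts assigned to each transcript, 1 bar per library, for S100A16 (BT549 left out, at most 24 counts), S100A13 and S100A4. S100A16-203 takes 27.9% or more in MDA-MB-231 and 7.82% or less in SUM159, S100A13-203 takes 61.1% and 61.3% in BT549 EV, and S100A4-206 takes 2.32% or less in SUM159.

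The known binding partners were taken from a list of 30 genes, 28 of them tested (TLR4 had no row and CD36 was below the filter). In MDA-MB-231 KD 12 partners (42.9%) rose, 4 (14.3%) fell and 12 did not pass the test, beside 21.2% and 16.5% of all genes called higher and lower. In SUM159 KD 8 (28.6%) rose, 12 (42.9%) fell and 8 did not pass, beside 28.6% and 31.4% of all genes. In BT549 OE 11 (39.3%) rose, 14 (50.0%) fell and 3 did not pass, beside 35.6% and 35.0%. No test of the list against other genes was run. The medians were 0.07, -0.14 and -0.15, beside 0, 0 and 0.02 for all genes.

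Annexin A2, which forms a complex with S100A10, moved in opposite directions in the KD lines. ANXA2 was at 1421 ± 28.4 CPM in MDA-MB-231 EV and 2231 ± 5.92 in KD (log2 fold change 0.65, adjusted p = 9.92e-16 with edgeR), and at 1599 ± 17 in SUM159 EV and 774 ± 4.28 in KD (-1.05, adjusted p = 1.62e-20). The difference of these effects was 1.7 (SE 0.033, adjusted p = 3.3e-21). In BT549 OE ANXA2 rose by 0.55 (adjusted p = 5.77e-16). S100A10 was higher in all 3 comparisons, so in SUM159 KD the polysome-associated mRNAs of the 2 subunits stood on opposite sides. Protein levels were not looked at here. ANXA1, the S100A11 partner, likewise rose in MDA-MB-231 KD (0.15, adjusted p = 0.00022) and fell in SUM159 KD (-0.67, adjusted p = 3.59e-14) and BT549 OE (-0.18, adjusted p = 1.16e-05), while ANXA11, a ligand of S100A6, rose in both KD lines (0.31, adjusted p = 1.76e-07, and 0.23, adjusted p = 5.03e-06) and fell in BT549 OE (-0.53, adjusted p = 7.06e-13).

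Among the other partners, AHNAK, the scaffold of the S100A10 and annexin A2 complex, rose in SUM159 KD (0.7, adjusted p = 2.57e-14) and MDA-MB-231 KD (0.15, adjusted p = 0.00158) and fell slightly in BT549 OE (-0.12, adjusted p = 0.0343). MYH9, the myosin IIA heavy chain that S100A4 binds, rose in all 3 comparisons, by 0.22 in MDA-MB-231 KD (adjusted p = 2e-06), 0.23 in SUM159 KD (adjusted p = 5.55e-07) and 1.19 in BT549 OE (adjusted p = 8.32e-20). CACYBP, the calcyclin-binding protein, rose in MDA-MB-231 KD (0.26, adjusted p = 2.91e-07), fell in BT549 OE (-0.33, adjusted p = 6.58e-10) and was at -0.04 in SUM159 KD (adjusted p = 0.316). S100PBP, which binds S100P, rose in SUM159 KD (0.17, adjusted p = 0.0463) and BT549 OE (0.43, adjusted p = 9.77e-06) and was at 0.05 in MDA-MB-231 KD (adjusted p = 0.698). The receptor AGER was at 1.41 CPM or less in all group means, and its differences of 0.09, -0.2 and -0.97 did not pass the test (adjusted p = 0.936, 0.707 and 0.0772). When libraries were scaled by size only, the calls of ANXA1 (0.06) and AHNAK (0.06) in MDA-MB-231 KD and of AHNAK in BT549 OE (-0.1) were lost; that of AHNAK in BT549 was also lost without EV replicate 1 (-0.1) or OE replicate 1 (-0.08), and that of S100PBP in SUM159 KD with scaling by size (0.14) and without EV replicate 1 (0.11), KD replicate 1 (0.15) or KD replicate 2 (0.2). CACYBP in SUM159 KD passed as lower (-0.07) with scaling by size only.

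Further partners are given in the comparisons in which they were among the widest called changes of the list. FGF1, released together with S100A13, fell in MDA-MB-231 KD from 24.7 ± 2.74 to 10.2 ± 1.58 CPM (-1.28, adjusted p = 4.59e-08) and rose in SUM159 KD from 3 and 3 counts to 44 and 31 (adjusted p = 1.08e-06), a ratio of 11.6 (exact 95% interval 5.07 to 32.5). IL1A, the other cargo, fell in SUM159 KD from 23.6 ± 0.53 CPM to 0.169 and 0.181 CPM (-7.03, adjusted p = 1.01e-17). These KD levels are near the floor of 3 counts (0.13 CPM), so the size of this fold is uncertain. PLAT, the plasminogen activator whose activity the S100A10 complex supports, rose in MDA-MB-231 KD (0.49, adjusted p = 0.000494) and fell in SUM159 KD (-1.89, adjusted p = 3.3e-14), and PLAUR, the urokinase receptor, rose in SUM159 KD (0.98, adjusted p = 3.92e-11) and fell in BT549 OE (-1.39, adjusted p = 2.06e-18). EGFR fell in both KD lines (-0.56, adjusted p = 5.5e-10, and -1.29, adjusted p = 1.19e-16), and ANXA5 rose in MDA-MB-231 KD (0.51, adjusted p = 2.27e-12) and fell in SUM159 KD (-0.4, adjusted p = 2.78e-11) and BT549 OE (-0.69, adjusted p = 8.72e-17). DLC1, which S100A10 binds, fell in MDA-MB-231 KD (-0.42, adjusted p = 8.3e-07) and rose in BT549 OE from 0.692 ± 0.331 to 26.3 ± 1.04 CPM (5.24, adjusted p = 6.62e-19). In BT549 OE STUB1, a ubiquitin ligase, rose by 1.61 (adjusted p = 7.15e-19), and KCNK3, a potassium channel that S100A10 carries to the membrane, and EZR, the S100P ligand ezrin, fell (-6.84, adjusted p = 1.91e-19, and -1.02, adjusted p = 6.3e-14).

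Of 45 other EF-hand genes, 44 were tested (CALML6 was below the filter). In MDA-MB-231 KD 28 (63.6%) rose, 4 (9.09%) fell and 12 did not pass, beside 21.2% and 16.5% of all genes. In SUM159 KD 25 (56.8%) rose, 14 (31.8%) fell and 5 did not pass, beside 28.6% and 31.4%, and in BT549 OE 23 (52.3%) rose, 20 (45.5%) fell and 1 did not pass, beside 35.6% and 35.0%. The medians were 0.18, 0.26 and 0.17. The widest rise was that of SPARC in MDA-MB-231 KD (2.2, adjusted p = 2.11e-16) and of the myosin light chain MYL9 in SUM159 KD (2.32, adjusted p = 4.53e-22) and BT549 OE (6.04, adjusted p = 5.45e-29). The widest falls were those of ACTN1 in MDA-MB-231 KD (-0.54, adjusted p = 5.54e-12), PLCD1 in SUM159 KD (-0.71, adjusted p = 0.0201) and GCA in BT549 OE (adjusted p = 1.16e-15), which went from 9.05 CPM to 0 counts, at least 63.7-fold lower against the floor of 3 counts per library. The call of PLCD1 was lost without EV replicate 2 (-0.52) or KD replicate 1 (-0.63).

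The genes around the S100 cluster were also counted. Of 112 protein-coding genes within 1000000 bases of the members' span on chromosome 1, 60 had a row and 51 were tested. In MDA-MB-231 KD 14 (27.5%) rose and 7 (13.7%) fell, in SUM159 KD 5 (9.8%) rose and 29 (56.9%) fell, and in BT549 OE 14 (27.5%) rose and 27 (52.9%) fell, with medians of 0, -0.31 and -0.25; the shares of all genes are those given for the EF-hand genes. The widest changes were those of SEMA6C (0.69, adjusted p = 4.9e-05) and MLLT11 (-0.84, adjusted p = 0.00233) in MDA-MB-231 KD, SELENBP1 (0.57, adjusted p = 0.0351) and TDRKH (-1.68, adjusted p = 2.53e-08) in SUM159 KD, and IL6R (4.93, adjusted p = 5.87e-18) and ADAR (-2.51, adjusted p = 9.27e-25) in BT549 OE. The call of SELENBP1 was lost without EV replicate 1 (0.33), KD replicate 1 (0.51) or KD replicate 2 (0.63) and turned to -0.19 with its main transcript alone, and that of MLLT11 was lost without EV replicate 2 (-0.62) or KD replicate 1 (-0.56).

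**Figure D5:**
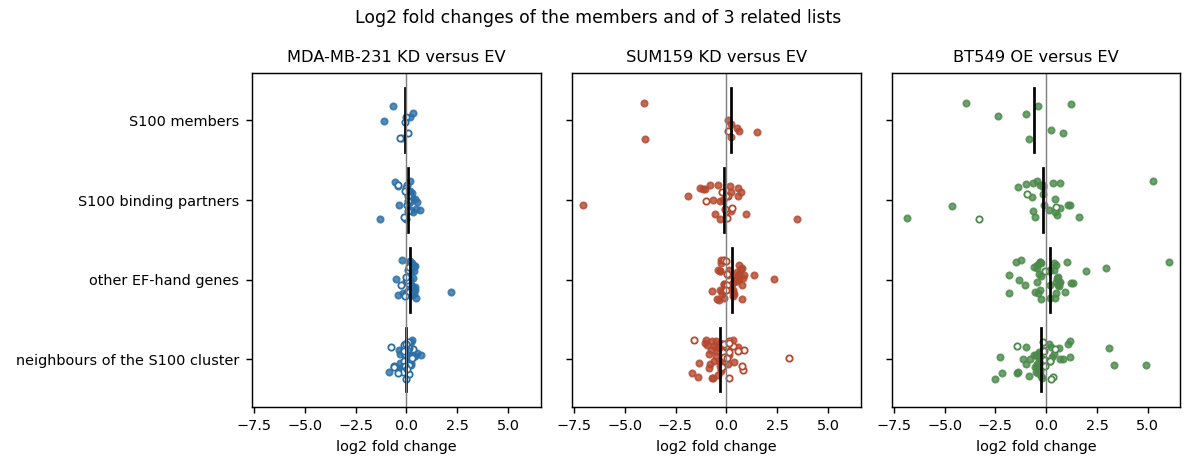
Log2 fold change of each tested gene (point; filled when past the threshold) of the members and of the 3 related lists, with the list median (black line), in the 3 comparisons. Genes at 3 counts or less in BT549 (S100P) or at 0 in OE (GCA) are left out there, and the list medians stay within 0.31 of 0 except for the members in BT549.

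The 9 members were compared by their course over the 6 group means of log2 CPM, each centred on its own mean. The nearest pair was S100A10 and S100A13, with a root mean square (RMS) difference of 0.36 on the log2 scale, followed by S100A10 and S100A11 (0.61) and S100A6 and S100A10 (0.62). For each member, all 3 of the most similar genes among 12590 candidates were not members. For S100A11 these were PSMB2, ZSCAN20 and SLC38A10 (0.069 to 0.094), for S100A13 ZNF655, SENP2 and REPIN1 (0.076 to 0.11), for S100A10 SLC35B4, TRDMT1 and DCUN1D3 (0.084 to 0.097), and for S100A6 C1orf21, PIGF and ENSG00000259316 (0.22 to 0.26). The wide-ranging members had more distant neighbours: S100P IL27RA, PDCD4 and KDM7A (0.34 to 0.39), S100A3 USP53, KRT7 and MANEAL (0.45 to 0.61), S100A4 CACNA2D3, LRRC7 and MYOZ2 (0.54 to 0.76), S100A16 EIF2D, SLC17A9 and TMEM204 (0.57 to 0.63), and S100A2 SOX7, HES1 and GLI1 (0.74 to 0.91). These likenesses rest on the 6 group means from which the members were chosen and are a description.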

How the data were processed

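Polysome-associated RNA of 12 libraries was analysed. According to the methods and the labels, reads were trimmed (Trimmomatic), placed on GRCh38 (HISAT2) and cleared of duplicates (SAMtools). The deposited values are expected counts of Ensembl transcripts without normalization. In the MDA-MB-231 and SUM159 columns as deposited, 5.08% of the rows hold a missing mark, read as 0 (none of them an S100 transcript). The counting tool and strand setting are not given in the sources used here, and the library kit is a stranded total RNA kit in the methods and a poly(A) kit in the labels. No transcript is at 0 in all 4 BT549 libraries, so transcripts undetected in BT549 have no row. The members and lists were chosen with earlier results of these data known.

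Transcripts were matched to GENCODE 44 (79.6%, with 99.25 to 99.41% of the counts), summed per symbol and rounded. After filterByExpr and TMM scaling, edgeR 4.0.16 in R 4.3.3 was used (common dispersion 0.000835, 6 residual degrees of freedom). A run on simulated data had no differences between lines and far fewer changed genes than were called here. That run therefore does not check the calls made on these libraries. DESeq2 1.42.0, 2 other scalings, 2 filters, each line alone, single transcripts, marked rows left out, the replicate block and leaving out each library were alternatives. Low ratios carry exact (conditional binomial) 95% intervals for counting error only. Over all genes, the libraries of a group scattered more than counting error alone gives (chi-square per gene 2.14 to 3.08 in the 6 groups). The intervals do not hold this extra spread. For members, which were chosen on these values, they are a description and no test. A count of 0 allows up to 3. All members are named; from the partner list, up to 3 genes per direction and comparison with the largest change at a mean of at least 50 counts, and 8 fixed partners (ANXA1, ANXA2, ANXA11, AHNAK, CACYBP, S100PBP, MYH9, AGER); from the other lists, the first such gene per direction. ANXA5 in SUM159 and BT549 was added after its values were seen. Figures were drawn with matplotlib 3.10.9 (Python 3.11.15).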

Additional observations from a re-analysis of the deposited data

Results flagged for a closer look

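S100A3, S100A4 and S100A6 were on opposite sides of EV in the KD lines, with no overlap of libraries in either line. Most members had no overlap, and the share of all genes without overlap was not counted. Their log2 fold changes were -0.34, -0.67 and -0.24 in MDA-MB-231 KD and 0.1, 1.5 and 0.6 in SUM159 KD. These differences between lines were not tested, because the members were chosen on these comparisons, and S100A3 was not called in either line.

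For other genes named in a KD comparison, the difference of the KD effects (MDA-MB-231 minus SUM159, log2) was tested with edgeR. It did not pass for ANXA11, MYH9, S100PBP, AGER, SELENBP1 and SEMA6C, and passed for those that follow. Among the binding partners it was 1.7 for ANXA2, 0.82 for ANXA1, 0.91 for ANXA5, 0.3 for CACYBP, 0.73 for EGFR and 2.37 for PLAT. For IL1A, near the floor in SUM159 KD, it was 7.12. The difference was -0.55 for AHNAK, -0.49 for DLC1, -0.79 for PLAUR and -4.76 for FGF1. Among the other EF-hand genes it was 1.84 for SPARC, 1.1 for PLCD1, -0.4 for ACTN1 and -2.12 for MYL9. Of the genes around the cluster, TDRKH had 2.23 and MLLT11 -0.64.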

How the results depend on the processing

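Of 346 member fold changes recomputed under the alternatives, 320 were scored as the same, 23 lost the call, 2 gained it and 1 reversed. The first score also covers a change of sign where neither fit passed the threshold. This was the case for S100A13 in MDA-MB-231 KD with library size alone. Of 162 levels recomputed, 67 were scored as moved and 95 as the same, so the levels hold for the processing used here. The reversal was that of S100A13 in BT549 OE with transcripts tested singly (0.44), where SELENBP1 also reversed in SUM159 KD (-0.19); the alternative replaces the gene by its most abundant transcript. Most lost calls were of S100A4 in MDA-MB-231, S100A16 in SUM159 and S100P in BT549, and the cause was not tested. In MDA-MB-231 KD, 1 member was called higher and 5 lower with library size alone, 1 higher with single transcripts, and between 1 and 2 higher when a library was left out. In SUM159 KD, 1 member was called lower with a mean of at least 50 counts, a filter that removes S100P. With single transcripts, 64066 features were tested, of which 2371 were called in MDA-MB-231 KD and 8428 in SUM159 KD. Beside these, 9 partners, 21 other EF-hand genes and 7 cluster neighbours were called in MDA-MB-231 KD and 22 cluster neighbours in SUM159 KD. The replicate numbers did not pair the libraries (correlation of same-numbered deviations 0.02, -0.025 and 0.0038), and with the replicate block 2 members were called lower in MDA-MB-231 KD, S100A4 (-0.67) no longer among them, while no other member changed its call. At this depth S100P, and S100A3 and S100A16 in BT549, rest on few counts.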
